A study of Homo sapiens with 12 samples.

Results

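A set of 10 genes that mark renal epithelial or mesenchymal identity were followed in RCC4 cells after YAP silencing and erastin, through every probe set that the platform annotation gives to them alone. These were 24 of the 22215 probe sets tested, for EPCAM, CDH1, CDH2, CDH6, PAX2, PAX8, KRT8, KRT18, KRT19 and VIM. RCC4 cells are an established line from a human clear cell carcinoma of the kidney, and they have no functional VHL. The 12 Affymetrix arrays formed 4 groups of 3: siYAP with erastin, siNT with erastin, siYAP with DMSO and siNT with DMSO. All cells were transfected, for 2 days, with an siRNA against YAP or with a non-targeting siRNA (siNT), and all then received 1 µM erastin or its solvent DMSO for 7 hours. By inhibiting system xc-, which brings cystine into cells, erastin can set off ferroptosis. YAP, encoded by YAP1, is the co-activator that Hippo signalling holds back, and it reaches DNA through TEAD factors. All results come from a single cell line, and the labels do not say whether the siRNA against YAP was a single sequence or a pool.

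Kidney tubule epithelium arises in development from mesenchyme, and PAX2 and PAX8, paired-box transcription factors, act early in that conversion. Cadherins join neighbouring cells through calcium-dependent contacts. Epithelia typically use E-cadherin (CDH1), mesenchymal cells N-cadherin (CDH2), and the proximal tubule also uses CDH6. Keratins 8, 18 and 19 build the filaments of simple epithelia, while vimentin (VIM) builds those of mesenchymal cells, and clear cell carcinomas commonly make both kinds. EPCAM is an adhesion protein of the epithelial surface.

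The PAX2 promoter is shown because PAX2 was called higher after silencing in both treatments and because RefSeq (GRCh38.p14) lists 2 start sites for the gene. Each line gives the 250 bases before a start site, 5′ to 3′ on the plus strand, in lower case with any GGAATG, the core bound by TEAD factors, in capitals.
PAX2, first start site, chr10:100735146-100735395: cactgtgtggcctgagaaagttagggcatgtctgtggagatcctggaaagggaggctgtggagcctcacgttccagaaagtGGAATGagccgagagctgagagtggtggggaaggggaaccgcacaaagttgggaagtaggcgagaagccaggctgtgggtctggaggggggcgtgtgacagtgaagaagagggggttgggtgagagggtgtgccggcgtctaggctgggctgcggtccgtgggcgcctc
PAX2, second start site, chr10:100745332-100745581: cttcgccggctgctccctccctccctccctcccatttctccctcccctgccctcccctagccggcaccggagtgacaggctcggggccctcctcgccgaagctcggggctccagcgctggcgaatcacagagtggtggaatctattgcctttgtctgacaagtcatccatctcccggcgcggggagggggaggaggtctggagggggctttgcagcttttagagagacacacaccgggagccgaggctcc
In windows that run on to 50 bases after the start, GGAATG was searched on both strands, as were CAGGTG, the E-box of SNAI and ZEB repressors, and TGANTCA, the AP-1 site. The RefSeq table held 7 such windows for 5 of the members, CDH2, PAX2, PAX8, KRT8 and VIM. The TEAD core was in 2 of the 7, at -169 of the first PAX2 start and at 18 of KRT8, against 14% of 35116 windows of all genes. The E-box was in 1 of the 7, at 34 of a PAX2 start (20.6% of all windows), and the AP-1 site in 1, at -102 of a CDH2 start (7.71%). These matches are letters in a window and no evidence of binding.

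The values are RMA signals on the log2 scale, which ran from 2.02 to 14.4 over all arrays. Array medians lay between 6.49 and 6.52, and arrays of a group correlated at 0.9956 to 0.9986. Precision is limited by the number of arrays, and over all probe sets a log2 fold change had a median SE of 0.0845. YAP1 was at 4.68, 6.21 and 4.90 in siYAP with erastin, against 8.47, 8.52 and 8.65 in siNT with erastin. It was at 4.18, 4.88 and 4.81 in siYAP with DMSO, against 8.55, 8.59 and 8.47 in siNT with DMSO, so all arrays went the way of their labels. A sign of RNA integrity, the log2 gap between the 3′ and 5′ ACTB control probe sets, was 3.54 ± 0.18 (SD, n = 3) in siYAP with erastin and 2.26 ± 0.69 in siNT with erastin. With DMSO it was 2.59 ± 0.95 in siYAP, against 2.68 ± 0.28 in siNT. The same gap for the GAPDH controls was 0.17 ± 0.04 in siYAP with erastin and 0.15 ± 0.08 in siNT with erastin. With DMSO the GAPDH gap was 0.22 ± 0.01 in siYAP and 0.18 ± 0.07 in siNT. Single arrays had ACTB gaps of 1.49 to 3.14 in siYAP with DMSO and of 1.49 to 2.82 in siNT with erastin. The part of RNA integrity in the results was not tested in either treatment.

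Among the members, CDH1 lay near the bottom of the scale in all groups, with group means of 2.76 to 3.32. Of the other 9 genes, the brightest probe set of KRT19 in siNT with erastin had the lowest group mean, 7.46, so the line carried signal for renal, keratin and mesenchymal genes together and next to none for E-cadherin. Markers of other cell types that a culture could hold had low mean levels. The mean over 9 endothelial genes was 4.24 to 4.50 on the 12 arrays, over 12 fibroblast and pericyte genes 4.70 to 4.93 and over 10 immune genes 4.86 to 5.17. The means over 22 renal lineage factors (5.12 to 5.24) and 25 tubule segment markers (5.43 to 5.63) were low too. A low list mean thus does not set other cell types apart from the line's own lineage. The immune mean covers 1 bright gene, CD74, the invariant chain of MHC class II, with group means of 9.78 in siYAP with erastin, 9.37 in siNT with erastin, 9.76 for siYAP DMSO and 9.41 for siNT DMSO. RMA values have no true zero, so none of these genes can be said to be at 0.

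YAP silencing roughly doubled EPCAM and raised the brighter PAX2 probe set, while KRT18 fell, in both treatments. KRT19 and some of the CDH6 probe sets were slightly higher, but most of these calls were lost without some single arrays. In limma, with Benjamini-Hochberg adjustment over all 22215 probe sets, 8 of the 24 member probe sets passed an adjusted p of 0.05 in DMSO, 6 higher and 2 lower. That is 33.3% of the member probe sets, against 27.4% of all probe sets (14.4% higher and 12.9% lower). Under erastin 9 passed, 6 higher and 3 lower, which is 37.5% against 28.9% of all probe sets (16% higher and 12.9% lower). Both shares were near the background, so the members as a group did not stand out. Passed in both treatments were 6 probe sets, 5 of them higher and 1 lower. The arrays of siYAP and siNT did not overlap for 12 of the 24 member probe sets in each treatment. Over all probe sets the share was 40.8% in DMSO and 40.1% under erastin. The median log2 change of the member probe sets was -0.02 under erastin (0.00 over all probe sets) and 0.07 in DMSO (0.02 over all). In bulk RNA, fewer cells of a type and less RNA per cell cannot be told apart.

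EPCAM had the largest change of the members in both treatments. Its only probe set read 8.99, 8.95 and 9.11 in siYAP with erastin, against 7.90, 7.71 and 8.38 in siNT with erastin. It read 8.86, 8.93 and 8.92 in siYAP with DMSO, against 7.89, 7.95 and 7.74 in siNT with DMSO. All 6 siYAP arrays lay above all 6 siNT arrays, and siNT with erastin had the widest spread, through its array at 8.38. EPCAM was 2.03-fold higher under erastin (95% interval 1.66 to 2.47, adjusted p = 7.11e-05) and 2.06-fold higher in DMSO (1.69 to 2.51, adjusted p = 6.15e-05). Leaving out 1 array at a time gave log2 changes of 0.88 to 1.21 under erastin and 0.98 to 1.09 in DMSO.

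**Figure D1:**
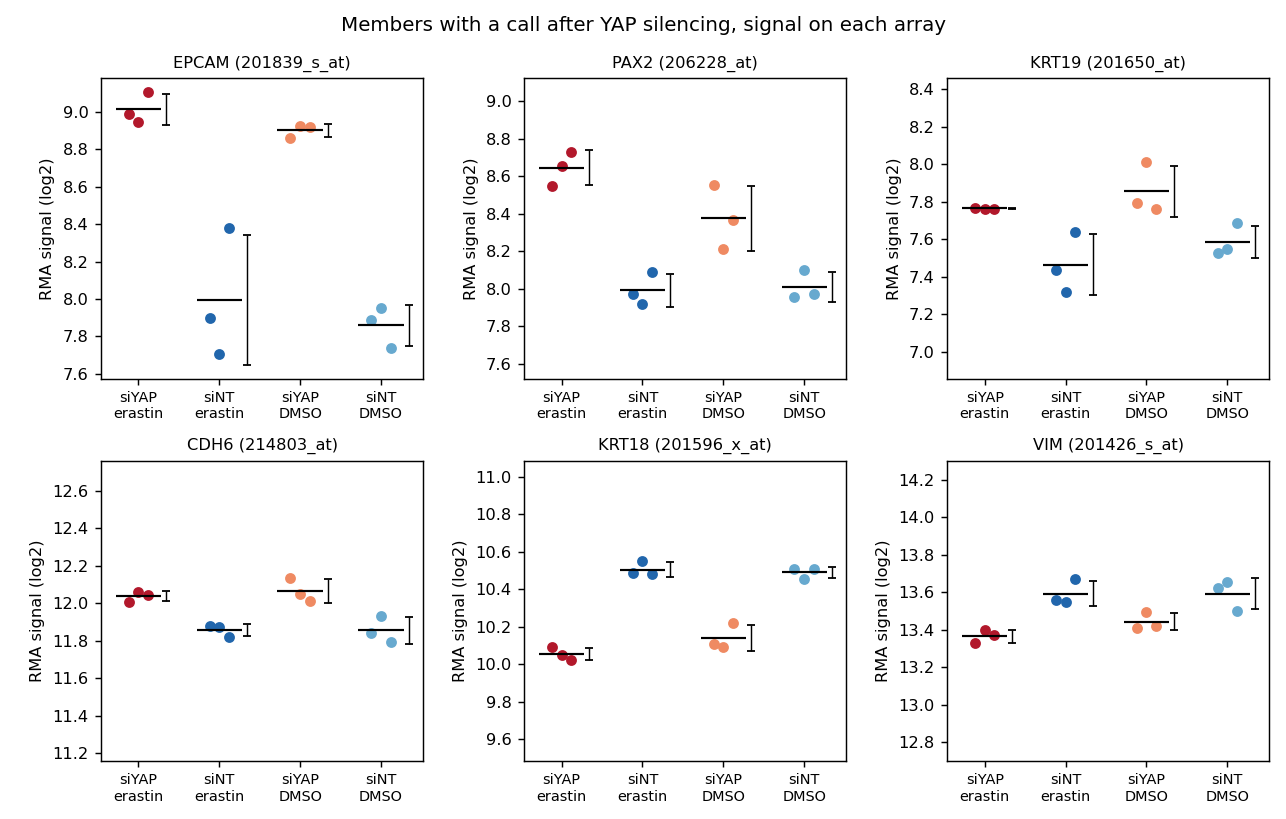
RMA signal (log2) on each array for 6 probe sets, 1 panel each, with a point per array, a line at the mean of the 3 arrays and a bar of 1 SD to its right. EPCAM stands at 8.86 to 9.11 on the siYAP arrays and at 7.71 to 8.38 on the siNT arrays, and KRT18 at 10.02 to 10.22 against 10.45 to 10.55.

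Of the renal lineage factors, PAX2 was called and PAX8 gave no single answer. The brighter PAX2 probe set read 8.55, 8.66 and 8.73 in siYAP with erastin, against 7.97, 7.92 and 8.09 in siNT with erastin. With DMSO, siYAP arrays read 8.55, 8.21 and 8.36, against 7.96, 8.10 and 7.97 in siNT with DMSO. Every siYAP array lay above every siNT array, and siYAP with erastin was the highest group. The rise was 0.65 (SE 0.089, adjusted p = 1.09e-04) under erastin, which is 1.57-fold, and 0.37 (SE 0.089, adjusted p = 0.00727) in DMSO, which is 1.29-fold. The rise held without any single array in both treatments. The dimmer PAX2 probe set had log2 changes of 0.19 (adjusted p = 0.176) under erastin and 0.25 (adjusted p = 0.0757) in DMSO. It passed in DMSO only without siYAP DMSO replicate 2 (0.34) and with array weights.

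PAX8, the lineage factor most used to recognise renal tumours, was measured by 8 probe sets. In DMSO 1 of them was called lower and under erastin 1 other was called higher. The brightest read 10.47, 10.40 and 10.41 in siYAP with DMSO, against 10.64, 10.60 and 10.59 in siNT with DMSO. These groups did not overlap, and the change was -0.18 (SE 0.059, adjusted p = 0.035). That call was lost without any of 7 single arrays (adjusted p up to 0.111), namely any of the 6 DMSO arrays or siYAP erastin replicate 1, and it was lost after median centring or quantile normalization. Under erastin the same probe set differed by -0.02 (95% interval -0.15 to 0.11). The probe set called higher read 7.68, 7.82 and 7.68 in siYAP with erastin, against 7.55, 7.51 and 7.34 in siNT with erastin. It rose by 0.26 (SE 0.071, adjusted p = 0.0133), a call lost without siYAP erastin replicate 2 (0.20, adjusted p = 0.0646). In DMSO its difference was 0.14 (adjusted p = 0.169). Across the 8 probe sets the log2 differences ran from -0.27 to 0.26 under erastin and from -0.18 to 0.24 in DMSO, and they did not share a sign in either.

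Among the cadherins, CDH6 was higher on some of its probe sets, and CDH1 and the brighter CDH2 probe set were not called. The brightest CDH6 probe set read 12.01, 12.06 and 12.04 in siYAP with erastin, against 11.88, 11.88 and 11.82 in siNT with erastin. It read 12.14, 12.05 and 12.01 in siYAP with DMSO, against 11.84, 11.93 and 11.79 in siNT with DMSO. All siYAP arrays lay above all siNT arrays. The rise was small, 0.18 (SE 0.058, adjusted p = 0.0334) under erastin and 0.21 (SE 0.058, adjusted p = 0.0149) in DMSO. Under erastin it was lost without any 1 of the 6 erastin arrays (adjusted p up to 0.101), with quantile normalization and in a fit of those 6 arrays. In DMSO it was lost without siNT DMSO replicate 1, siNT DMSO replicate 3 or siYAP DMSO replicate 1 (adjusted p up to 0.0713).

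A further pair of CDH6 probe sets were called. The dimmer of them read 8.13, 8.35 and 8.26 in siYAP with erastin, against 7.94, 7.75 and 8.03 in siNT with erastin, and rose by 0.34 (SE 0.083, adjusted p = 0.00709), also without any single array. In DMSO it rose by 0.26 (adjusted p = 0.033), a call lost without siNT DMSO replicate 2 or 3 or any 1 of the 3 siYAP arrays with DMSO (adjusted p up to 0.114). The brighter of them rose by 0.21 in DMSO (adjusted p = 0.0483), a call lost without any of 9 single arrays (adjusted p up to 0.145), and it held only without siNT DMSO replicate 1 or siNT erastin replicate 2 or 3. Its difference under erastin was 0.16 (adjusted p = 0.139). The remaining 2 CDH6 probe sets were called in neither treatment, with differences of -0.02 and -0.16 under erastin and 0.06 and 0.23 in DMSO. These 5 probe sets measure the same gene in the same RNA and are not independent.

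N-cadherin had a bright probe set, which read 11.86 to 11.92 in siYAP with erastin and 11.82 to 11.92 in siNT with erastin. With DMSO it read 11.85 to 11.90 in siYAP, against 11.83 to 11.89 in siNT. These groups overlapped, and the differences were 0.04 (95% interval -0.07 to 0.15) under erastin and 0.03 (-0.09 to 0.14) in DMSO. The dimmer CDH2 probe set read 8.72, 8.49 and 8.59 in siYAP with erastin, against 8.97, 8.98 and 9.30 in siNT with erastin, and fell by 0.49 (SE 0.145, adjusted p = 0.0234). The call was lost without siNT erastin replicate 3 or siYAP erastin replicate 2 or 3 (adjusted p up to 0.0881). In DMSO it read 8.71, 9.26 and 8.73 in siYAP, against 8.96, 9.04 and 8.71 in siNT, a difference of 0.00 (95% interval -0.32 to 0.31). So the CDH2 probe sets did not answer alike under erastin. CDH1 lay at 2.76 to 3.36 on the siYAP arrays with erastin, against 2.83 to 3.23 in siNT with erastin, over its 2 probe sets. It lay at 2.70 to 3.42 in siYAP with DMSO, against 2.79 to 3.47 in siNT with DMSO. No CDH1 difference was called, and at this signal a change could be compressed. Without siNT DMSO replicate 1, the dimmer CDH1 probe set was called lower in DMSO (-0.39, adjusted p = 0.0113).

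**Figure D2:**
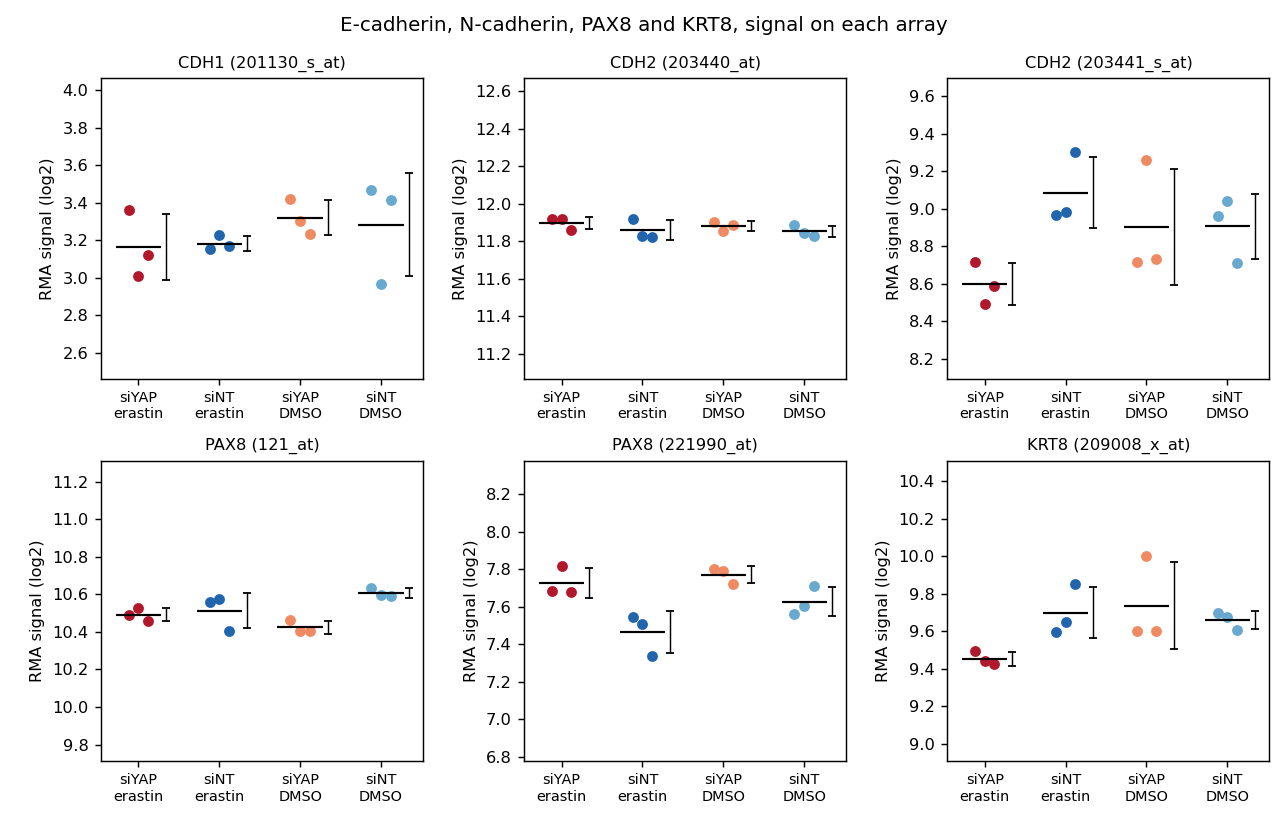
RMA signal (log2) on each array for 6 further probe sets of CDH1, CDH2, PAX8 and KRT8, with the mean of 3 arrays as a line and 1 SD as a bar. The brighter CDH1 probe set, the one drawn, stays between 2.97 and 3.47 in all groups, and the CDH2 probe sets differ in their pattern under erastin.

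Among the intermediate filament genes, KRT18 fell, KRT19 was slightly higher, and VIM was called lower under erastin. KRT18, the type I partner of keratin 8, read 10.09, 10.05 and 10.02 in siYAP with erastin, against 10.48, 10.55 and 10.48 in siNT with erastin. It read 10.11, 10.09 and 10.22 in siYAP with DMSO, against 10.51, 10.45 and 10.51 in siNT with DMSO. The siRNA groups did not overlap in either treatment. KRT18 fell by 0.45 (SE 0.055, adjusted p = 4.82e-05) under erastin and by 0.35 (SE 0.055, adjusted p = 3.88e-04) in DMSO, also without any single array. Keratins 8 and 18 have many processed pseudogenes and their probe sets carry the suffix for probes that can match other transcripts, so part of these signals may come from elsewhere.

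KRT8, the type II partner, did not follow KRT18 in DMSO. It read 9.50, 9.44 and 9.43 in siYAP with erastin, against 9.60, 9.65 and 9.85 in siNT with erastin. With DMSO, siYAP arrays read 9.60, 10.00 and 9.60, against 9.70, 9.68 and 9.61 in siNT with DMSO. The erastin groups did not overlap, while in DMSO they did. The difference was -0.25 under erastin (95% interval -0.47 to -0.02, adjusted p = 0.0958) and 0.07 in DMSO (-0.15 to 0.30, adjusted p = 0.676). Under erastin it passed without siYAP DMSO replicate 2 and with the trended and robust variance model.

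KRT19, a type I keratin of simple epithelia and ducts, read 7.77, 7.76 and 7.76 in siYAP with erastin, against 7.44, 7.32 and 7.64 in siNT with erastin. It read 7.79, 8.01 and 7.76 in siYAP with DMSO, against 7.53, 7.55 and 7.69 in siNT with DMSO. No siNT array reached the siYAP arrays. The rise was 0.30 (SE 0.089, adjusted p = 0.0214) under erastin and 0.27 (SE 0.089, adjusted p = 0.0389) in DMSO. Under erastin it was lost without any of 5 single arrays, which were all erastin arrays other than siNT erastin replicate 3 (adjusted p up to 0.0855). In DMSO it was lost without any of 8 single arrays (adjusted p up to 0.162). It held without any of the other 4, which were siNT DMSO replicate 3, siYAP DMSO replicate 3 and siNT erastin replicates 2 and 3.

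VIM read 13.33, 13.40 and 13.37 in siYAP with erastin, against 13.56, 13.55 and 13.67 in siNT with erastin, and 13.41, 13.49 and 13.42 in siYAP with DMSO, against 13.62, 13.65 and 13.50 in siNT with DMSO. The groups did not overlap in either treatment. VIM fell by 0.23 (SE 0.061, adjusted p = 0.0133) under erastin, a call lost without siYAP erastin replicate 1 (-0.19, adjusted p = 0.0533). In DMSO the difference was -0.15 (95% interval -0.28 to -0.02, adjusted p = 0.0958), and it passed without siNT DMSO replicate 3, with array weights and with the trended and robust model. VIM lies close to the top of the scale, where array signals can saturate and differences can be compressed.

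**Figure D3:**
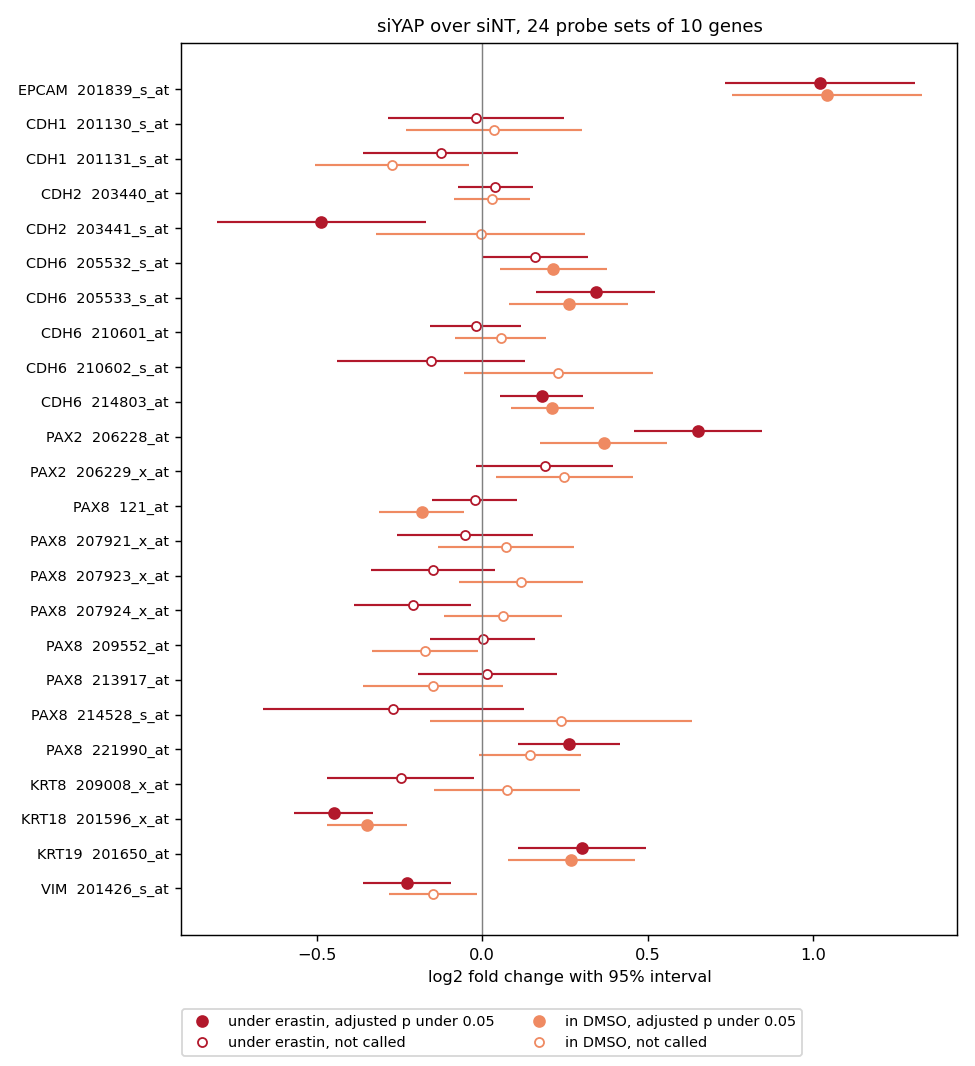
log2 fold change of siYAP over siNT for each of the 24 member probe sets, with its 95% interval from limma, under erastin and in DMSO. Filled points passed an adjusted p of 0.05; EPCAM is at 1.02 and 1.04, the brighter PAX2 probe set at 0.65 and 0.37, and KRT18 at -0.45 and -0.35.

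Erastin changed none of the member probe sets detectably. In siYAP cells 0 of 24 passed in limma (4 at an unadjusted p under 0.05), where 0.171% of all probe sets passed, and the smallest adjusted p of a member was 0.384. In siNT cells 0 of 24 passed (1 at an unadjusted p under 0.05), where 0.297% of all passed, and the smallest was 0.542. The differences ran from -0.30 to 0.27 in siYAP cells and from -0.16 to 0.30 in siNT cells. EPCAM differed by 0.11 in siYAP (95% interval -0.17 to 0.40) and by 0.13 in siNT cells (-0.15 to 0.42). The brighter PAX2 probe set differed by 0.27 in siYAP cells (adjusted p = 0.384) and by -0.02 in siNT cells (adjusted p = 0.984). The interaction is the difference between the silencing effects under erastin and in DMSO. It passed for 0 of 24 member probe sets (5 at an unadjusted p under 0.05) and for 0% of all probe sets. For EPCAM it was -0.02 (95% interval -0.43 to 0.38), for the brighter PAX2 probe set 0.28 (adjusted p = 0.544) and for the dimmer CDH2 probe set -0.48 (adjusted p = 0.539). The erastin comparisons share arrays with the silencing comparisons. So the CDH2, CDH6, VIM and PAX8 calls made in a single treatment are not shown to depend on erastin.

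**Figure D4:**
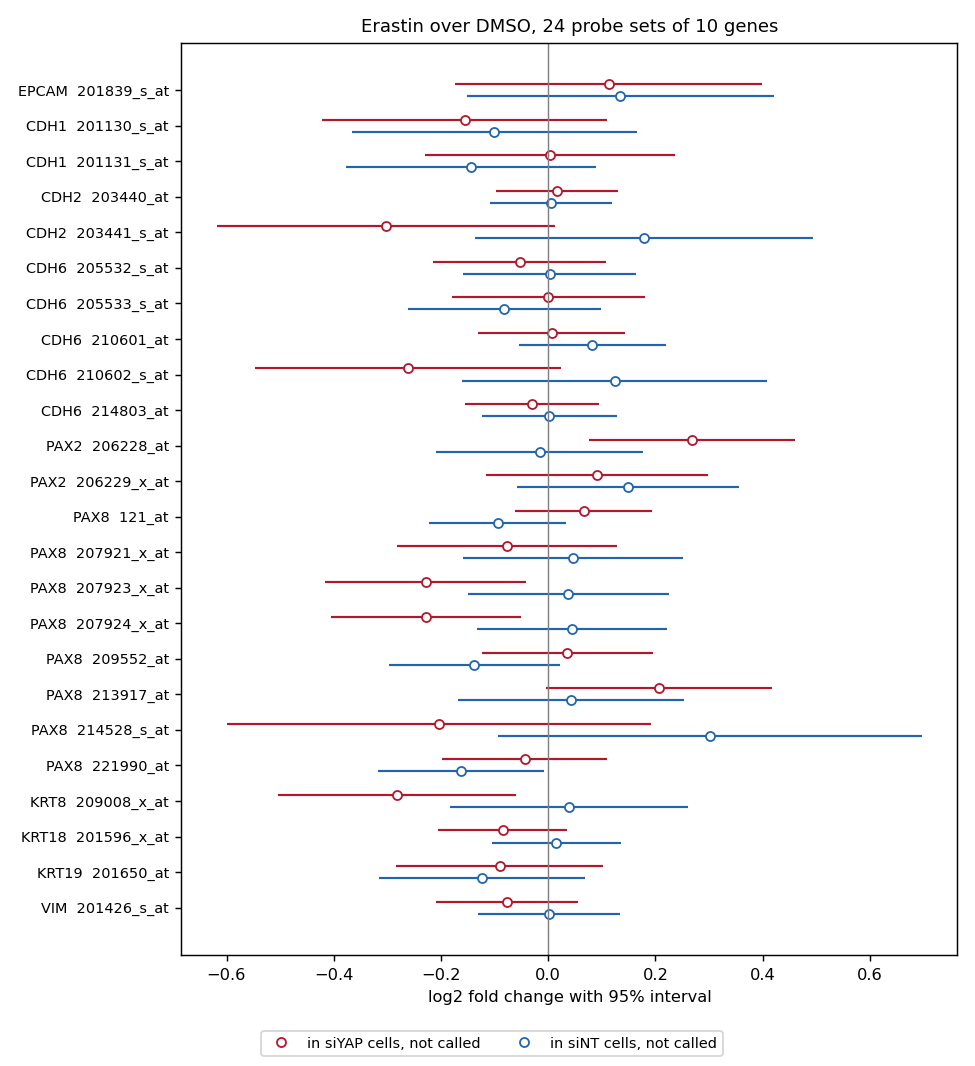
log2 fold change of erastin over DMSO with its 95% interval for each of the 24 member probe sets, in siYAP and in siNT cells. No probe set passed an adjusted p of 0.05, and the values lie between -0.30 and 0.30.

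The order of the group means followed the siRNA for the members called in both treatments. EPCAM was at 9.01 ± 0.08 (SD, n = 3) in siYAP with erastin, 8.90 ± 0.04 in siYAP with DMSO, 7.99 ± 0.35 in siNT with erastin and 7.86 ± 0.11 in siNT with DMSO. The brighter PAX2 probe set was at 8.64 ± 0.09 in siYAP with erastin, 8.38 ± 0.17 in siYAP with DMSO, 8.01 ± 0.08 in siNT with DMSO and 7.99 ± 0.09 in siNT with erastin. For both genes the neighbours in this order that share an siRNA were not told apart by the test. The middle neighbours of each order differ in siRNA and in treatment and were not compared directly.

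The genes most like the members over the 12 arrays were sought among genes with a mean at or above the median of all. They describe a shared pattern, since all arrays carry the same siRNA contrast, and say nothing of function. For EPCAM they were RPRD1A (Pearson r = 0.991), SC5D (0.990) and S100PBP (0.990). For PAX2 they were JARID2 (0.975), IGF2BP3 (0.975) and PDE4A (0.972), and for KRT18 NSMCE4A (0.988), FAM3C (0.986) and SDHD (0.981). For the brightest CDH6 probe set they were SIL1 (0.975), OBSL1 (0.966) and RIPOR1 (0.955), and for KRT19 FASTKD2 (0.943), LRRFIP2 (0.940) and NECAP2 (0.937).

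Related genes were counted on 1 probe set per gene, the brightest, over 11963 genes. Of all genes, 34.9% were called under erastin (20% higher, 14.8% lower) and 33.7% in DMSO (18.1% higher, 15.6% lower). Among 30 measured junction and epithelial genes, 5 rose and 5 fell under erastin and 6 rose and 4 fell in DMSO, with median log2 changes of -0.01 and 0.11 against 0.01 and 0.02 over all genes. DSC2, a desmosomal cadherin, rose by 1.71 under erastin and 1.26 in DMSO; its siNT means of 4.17 and 3.97 lie low on the scale. CLDN1, a tight junction claudin, rose by 1.05 and 0.87. DSP, the desmosomal plaque protein, fell by 0.70 and 0.63, and PKP4 by 0.53 and 0.51. The list thus held desmosomal genes on both sides.

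Of 13 catenins and cadherin partners, 2 rose and 3 fell under erastin and 2 rose and 2 fell in DMSO, with medians of -0.02 and 0.01. The adhesion gene NECTIN3 rose by 0.68 under erastin and 0.93 in DMSO. Of 19 other cadherins none passed in limma in either treatment (1 at an unadjusted p under 0.05 under erastin and 2 in DMSO). Of 27 other keratin and intermediate filament genes, 6 rose and 4 fell under erastin and 3 rose and 4 fell in DMSO, with medians of -0.04 and 0.04. KRT7, a keratin of ducts, rose by 0.88 and 0.73, though its other probe set was not called. The nuclear lamin gene LMNB1 fell by 2.22 and 2.09, the largest change on any of these lists, and SYNM, which encodes synemin, fell by 0.47 under erastin and by 0.70 in DMSO. The neurofilament genes NEFM (0.75 under erastin and 0.45 in DMSO) and NEFL (0.43 and 0.46) rose in both.

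Transcription factors linked to epithelial-mesenchymal transition went both ways: of 13, 2 rose and 3 fell under erastin and 4 rose and 4 fell in DMSO, with medians of -0.03 and 0.04. TCF4, an E-protein, rose by 1.51 under erastin and 1.25 in DMSO, with 6 further probe sets called the same way in each, and SOX9 fell by 0.73 and 1.08. SNAI2, which represses E-cadherin, rose by 0.51 in DMSO (adjusted p = 0.00729) and was not called under erastin (0.18). The ZEB repressors split in DMSO: ZEB1 fell by 0.26 under erastin and by 0.38 in DMSO, while ZEB2 rose by 0.58 in DMSO and was not called under erastin (0.39). The ZEB2 call was lost without siNT DMSO replicate 3 or siYAP DMSO replicate 3. Leaving out single arrays was not run for ZEB1. Of 21 mesenchymal markers, 5 rose and 2 fell under erastin and 2 rose and 4 fell in DMSO, with medians of 0.02 and 0.00. FN1, fibronectin, fell by 0.35 under erastin and by 0.39 in DMSO, in DMSO with 5 further probe sets called the same way, and the receptor kinase gene AXL fell by 0.38 under erastin and 0.36 in DMSO. ACTA2, smooth muscle actin, rose by 0.42 in each, though its other probe set was not called, and under erastin the call was lost when its probe sets were averaged (adjusted p = 0.06).

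Of 22 renal lineage factors, 3 rose and 1 fell under erastin and 2 rose and 1 fell in DMSO, with medians of 0.01 and -0.05. The nuclear receptor gene ESRRG rose by 1.10 under erastin and 0.98 in DMSO. SIX2, a factor of nephron progenitors, fell by 0.41 in DMSO, on 1 of its 2 probe sets. Of 25 tubule segment markers, 3 rose and none fell under erastin and 5 rose and none fell in DMSO, with medians of -0.03 and 0.06. DPP4, a brush border peptidase, rose by 0.61 under erastin and 0.74 in DMSO, SLC3A1, a subunit of the cystine transporter of the proximal tubule, by 0.54 and 0.87, and MME, the peptidase neprilysin, by 0.37 and 0.41. The other SLC3A1 probe set was not called. The shares called among the other cadherins, the renal factors and the tubule markers were below the background over all genes. Of the 13 transition factors, 8 were called in DMSO, 4 higher and 4 lower, against 33.7% of all genes. Under erastin 2 of the 13 were called higher and 3 lower, against 34.9% of all genes. Of 68 list values named by the rule, 50 passed under every alternative run other than a 2-fold minimum. Those lost under at least 1 include ZEB2 (0.58 in DMSO), CNN1 (0.38 in each treatment), MECOM (-0.69 under erastin) and SPARC (0.47 under erastin). With erastin itself, 0 genes of all lists passed in siYAP cells, where 0.334% of all genes did, and 1 in siNT cells, where 0.752% did.

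**Figure D5:**
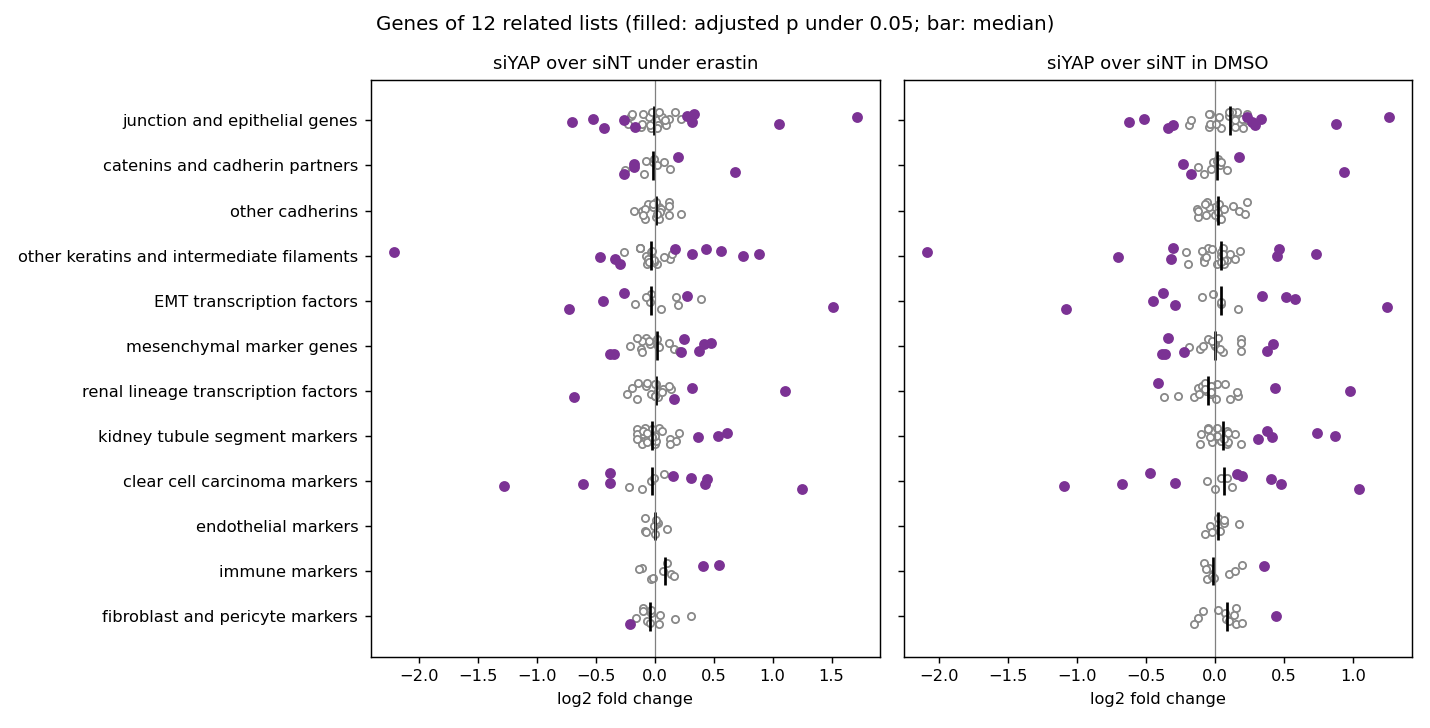
log2 fold change of siYAP over siNT for the measured genes of 12 lists, 1 point per gene, under erastin and in DMSO, with filled points for an adjusted p under 0.05 and a bar at the median of each list. Medians lie between -0.05 and 0.11, and called genes lie on both sides of 0 on most lists.

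Few markers of other cell types were called, where 34.9% of all genes were called under erastin and 33.7% in DMSO. Of 9 endothelial markers none passed in limma in either treatment (0 at an unadjusted p under 0.05 in each). Of 10 immune markers 2 rose under erastin and 1 in DMSO, CD74 (0.41 and 0.35) and ITGAM (0.54, under erastin). The other ITGAM probe set was not called, and the change was 0.25 when both were averaged. These changes are about as large as those of KRT18, KRT19, CDH6 and VIM. Of 12 fibroblast and pericyte markers 1 fell under erastin (FBLN1, -0.22) and 1 rose in DMSO (RGS5, 0.44), and no other probe set of either gene was called; both calls were lost without some single arrays. Over the endothelial list an array's mean level was 4.32 to 4.41 for siYAP erastin, 4.24 to 4.50 for siNT erastin, 4.38 to 4.39 for siYAP DMSO and 4.27 to 4.43 for siNT DMSO. The part of other cells in the members' changes was not tested.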

How the data were processed

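Per the submitters' processing notes, the authors used RMA in Affymetrix Expression Console. For its version, its settings and the array type nothing is given in the sources used here. Judged by their range, the values the authors deposited are log2 signals. RMA equalises arrays and compresses differences of dim probe sets.

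Of 22277 probe sets, 62 array controls were left out. A platform annotation gave 1 symbol to 19065 probe sets, several to 1043 and none to 2107. RefSeq gene identifiers matched 19053 and changed 0 symbols. No probe set with several symbols named a member. Groups came from the sample titles.

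limma 3.58.1 in R 4.3.3 fitted a mean per group to all 12 arrays (8 residual and 4.27 prior degrees of freedom), with Benjamini-Hochberg adjustment over 22215 probe sets, or over 11963 genes for lists. All adjusted p-values are limma's. The labels call the arrays biological triplicates without saying how separately cells were grown, so a p-value here reflects only how these samples spread, which may be technical. The test was checked on simulated data. Named genes were all members, up to 4 called genes of the largest change per list and the 3 most correlated genes of members called in both treatments. ZEB1 was named as well, beside SNAI2. Members and lists were chosen with earlier results of these data known. Alternatives are in the closing section. Same-numbered arrays of different groups correlated at -0.42 to 0.17 in their deviations from group means (3 of 18 pairs over 0.1). Arrays of different number correlated at -0.23 to 0.34 (10 of 36 pairs over 0.1). The labels do not say what a number shares, so the numbers were not taken to pair arrays.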

Additional observations from a re-analysis of the deposited data

How the results depend on the processing

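Of 17 member calls after silencing, 7 (EPCAM, KRT18 and the brighter PAX2 probe set in both treatments, 1 CDH6 probe set under erastin) passed under all alternatives run except the 2-fold minimum and the zero transformation, and 10 were lost under at least 1; no call changed sign. The 8 member probe sets called in DMSO became 5 with the replicate block. That block lost KRT19 (adjusted p = 0.0581) and the CDH6 probe sets of 0.26 (0.0587) and 0.21 (0.078). It also gave 0 of the list genes called with erastin in siNT cells. With a 2-fold minimum the 8 became 1, EPCAM. The 9 called under erastin became 1 with that minimum. The zero transformation of the design text, which asks that all 3 arrays lie beyond 1 log2 unit from the siNT mean, called 1 member in DMSO (EPCAM, 1.00 to 1.07) and 0 under erastin (EPCAM, 0.95 to 1.11). Of all 22215 probe sets it called 388 in DMSO and 341 under erastin. Leaving out 1 array at a time gave 3 to 8 called member probe sets in DMSO and 6 to 10 under erastin. It gave 0 with erastin in either siRNA group or for the interaction. The count in DMSO was 3 without siYAP DMSO replicate 1, 4 without siNT DMSO replicate 2, and 5 without siNT DMSO replicate 3, siYAP DMSO replicate 2 or 3, or siYAP erastin replicate 1. Apart from the zero transformation, no count over all probe sets is given beside these alternatives. A fall there is thus not shown to be particular to the members. The counts over all list genes, 56 under erastin and 54 in DMSO, were 44 to 56 and 45 to 58 without 1 array, and 7 and 6 with a 2-fold minimum. In the main fit 34.9% of all 11963 genes were called under erastin and 33.7% in DMSO. With erastin in siNT cells 1 list gene was called (ANGPTL4). The count was 0 in the fit of 6 arrays or with a 2-fold minimum, 2 with quantile normalization, without the dimmest 30% or with the trended model, 4 with array weights, and 0 to 1 without 1 array. Dim signal limits CDH1, and the top of the scale limits VIM; the cause of the lost calls was not tested.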

Other observations

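Genes that mark clear cell renal carcinoma, many of them hypoxia-inducible factor targets, split after silencing. Of 14 measured, 5 rose and 4 fell in each treatment, with medians of -0.02 under erastin and 0.07 in DMSO. That is 9 of 14 called in each, where 34.9% of all genes were called under erastin and 33.7% in DMSO. CA12, a carbonic anhydrase, rose by 1.25 under erastin and by 1.04 in DMSO, with 5 further probe sets called the same way in each. ADM, adrenomedullin, fell by 1.28 and 1.09, and VEGFA by 0.61 and 0.68. CD70 rose by 0.43 under erastin and 0.48 in DMSO, and EGLN3 by 0.45 and 0.40. Leaving out single arrays was run for CA12, ADM and VEGFA in both treatments, CD70 in DMSO and EGLN3 under erastin, and none of these calls was lost.

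The 8 PAX8 probe sets did not share a sign of change, and the 2 CDH2 probe sets differed under erastin (0.04 and -0.49), so a single probe set per gene would have given PAX8 and CDH2 different calls depending on the choice. KRT8 and KRT18, whose proteins pair, had log2 changes of 0.07 and -0.35 in DMSO. The KRT8 value rests on siYAP DMSO replicate 2 at 10.00, where replicates 1 and 3 both read 9.60. Under erastin the changes had the same sign, -0.25 for KRT8 (not called) and -0.45 for KRT18. The same arrays, siYAP DMSO replicate 2 and siNT erastin replicate 3, read highest of all for KRT8 (10.00 and 9.85) and the dimmer CDH2 probe set (9.26 and 9.30). They also read highest for 1 uncalled CDH6 probe set (7.63 and 7.62) and 1 uncalled PAX8 probe set (6.90 and 7.22). What these arrays share was not tested.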
